A study of Mus musculus with 4 samples.

Results

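The enzymes of the urea cycle and of amino acid breakdown were measured in fasted and re-fed mouse liver. The 42 genes were chosen by name, as the enzymes that make urea and those that break down the amino acids. Earlier results of these data were known when they were chosen. Every array spot carrying 1 of the 42 names was used. All 42 were on the array, with 52 probes in all, and 41 of them had a measured probe, among 16084 named genes measured in the series. The missing gene was Sds, whose only spot was flagged as an outlier on 1 array, and its values on the other arrays are given separately. Livers came from male C57BL/6J mice aged 8 to 12 weeks. All 8 mice had food removed for 24 h, 4 were killed at that point (fasted), and 4 had food again for 2 h before the liver was taken (re-fed), so that both groups had gone through the long fast and no continuously fed mouse is in the comparison. Each array held the RNA of 1 fasted and 1 re-fed liver, paired at random, in the dyes Cy5 and Cy3. The arrays are numbered as replicates 1 to 4, and their values are log2 ratios of fasted over re-fed liver, positive where the fasted liver had more of the transcript. The fasted liver carried Cy5 on replicates 1 and 2 and Cy3 on replicates 3 and 4.

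Amino acids that are not needed for protein are broken down mainly in the liver. Aminotransferases move the amino group to glutamate, glutamate dehydrogenase and the urea cycle turn it into urea, and the carbon skeletons feed gluconeogenesis, ketone bodies or the citric acid cycle. During a fast the amino acids come from the body's own protein, and glucagon and glucocorticoids are known to raise many of these enzymes, with tyrosine aminotransferase (Tat) as a textbook case. CREB, the transcription factor that the study followed in these livers, relays the glucagon signal by binding the cAMP response element (CRE).

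The DNA just upstream of the transcription start is shown for the 4 members that were called higher in fasted liver once the dyes were part of the model (below), Got1, Tat, Aass and Hal, so that the letters known from CRE-carrying and other promoters can be seen in place. The windows hold the 250 bases before the start, are read 5′ to 3′ on the gene's own strand, and come from RefSeq annotation of the GRCm38.p6 build. Capitals mark CCAAT on either strand (ATTGG on the reverse), the CCAAT box, and TGACG on either strand, the first part of the CRE (CGTCA on the reverse). The Got1 window is chr19:43524606-43524855 on the minus strand, the Tat window chr8:109990186-109990435 on the plus strand, the Aass window chr6:23132987-23133236 on the minus strand, and the Hal window chr10:93488518-93488767 on the plus strand.
Got1: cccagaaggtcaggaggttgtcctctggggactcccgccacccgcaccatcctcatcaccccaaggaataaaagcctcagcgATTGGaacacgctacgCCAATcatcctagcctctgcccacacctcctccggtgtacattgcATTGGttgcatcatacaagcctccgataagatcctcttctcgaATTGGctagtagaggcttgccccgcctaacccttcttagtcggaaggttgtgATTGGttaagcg
Tat: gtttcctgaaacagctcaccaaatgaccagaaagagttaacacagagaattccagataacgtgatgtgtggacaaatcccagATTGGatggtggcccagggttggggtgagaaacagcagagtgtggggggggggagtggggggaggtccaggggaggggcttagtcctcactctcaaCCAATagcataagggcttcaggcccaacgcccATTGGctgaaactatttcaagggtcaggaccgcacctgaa
Aass: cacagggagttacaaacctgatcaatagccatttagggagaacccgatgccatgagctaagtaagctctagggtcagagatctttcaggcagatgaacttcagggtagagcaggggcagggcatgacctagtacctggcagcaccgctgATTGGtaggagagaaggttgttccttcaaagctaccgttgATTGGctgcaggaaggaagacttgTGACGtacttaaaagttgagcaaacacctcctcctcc
Hal: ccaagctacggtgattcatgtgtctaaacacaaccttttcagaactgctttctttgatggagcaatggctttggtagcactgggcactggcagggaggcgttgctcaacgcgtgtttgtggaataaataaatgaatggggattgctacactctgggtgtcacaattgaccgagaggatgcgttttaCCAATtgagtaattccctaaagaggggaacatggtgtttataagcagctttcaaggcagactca
The Got1 window held 5 matches to CCAAT, Tat 3, Aass 2 and Hal 1. The full palindromic CRE, TGACGTCA, was in 0 of the 33 windows of the 32 members with an entry, against 1.55% of all 32851 promoter windows. The shorter TGACG, which the full CRE also contains, was in 1 of 33, that of Aass, against 17.8% of all windows. The letters TATAAA, as in a TATA box, were counted on either strand and anywhere in the window. They were in 5 of 33 (Bckdk, Got2, Hal, Hgd and Tdo2), against 12.4% of all windows. Their distance from the start was not checked, so a match need not be a TATA box. CCAAT was in 21 of 33, or 63.6%, against 33.8% of all windows. These counts describe letters in short windows and were not tested. Members without an entry included Asl, Cps1, Cth, Dbt, Gls2, Gpt, Kynu, Mat1a and Sds.

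Gene spots had a median brightness of 40 to 75 (red) and 44 to 96 (green) across arrays, over local backgrounds with medians of 25 to 35 and 20 to 33. The members were brighter than most genes, with 32 of 41 among the brightest 10% of all genes, and the number of arrays limits precision. Hepatocyte markers were bright as well (5 of 6 measured), and 0 of 5 were called. Replicate 3 stood apart in pancreatic acinar markers, with Clps at -5.05, Ctrb1 at -3.79, Cel at -2.96 and Amy2a5 at -1.23 on the log2 ratio, while the same 4 genes lay between -0.17 and 0.34 on the other arrays, so that the re-fed liver of that array read far higher for them. The other 8 of the 12 acinar markers were not measured. Haemoglobin RNA (Hba-a1) had ratios of 2.45, -0.26, 2.48 and 0.34 on replicates 1 to 4. The part of these differences in the members' values was not tested, and the counts without replicate 3 are given beside the results.

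Most members were slightly higher in fasted than in re-fed liver, and few were much higher. Of 41 measured members, 35 had a mean log2 ratio above 0 and 6 below, and the median was 0.27 (1.21-fold), with a range from -0.28 (Nags) to 1.58 (Got1), where the median over all genes was 0.00. On replicates 3 and 4 alone, 24 of the 41 had a mean above 0, and 21 were above 0 in both dye orientations. The members' median was 0.02 on replicate 4. Over the 4 arrays, it was 0.27, and it was 0.13 without replicate 2 and 0.12 with median centring in place of loess. With limma, at an adjusted p under 0.10 and at least 1.5-fold, 2 of 41 members were called higher, Got1 and Tat, against 1.82% of all genes. None of the 41 was called lower, against 2.13% of all genes. At an unadjusted p under 0.05 the limma fit had 13 members higher, against 10.3% of all genes, and 1 lower (Nags), against 11.7%, and a rebuilt SAM test called 0 members lower, where it called 363 of all 16084 genes lower. Without the fold limit, 8 of 41 were higher at an adjusted p under 0.10, among them Ahcy, Cps1, Gldc, Got1, Kynu, Tat and Tdo2, against 4.96% of all genes, and 0 were lower, against 6.28%. Just outside these limits lay Gpt2 (0.57, adjusted p = 0.1003), Nags (-0.28, adjusted p = 0.106) and Aass (0.60, adjusted p = 0.118). In whole liver, a change in the number of cells of a type and a change in RNA per cell cannot be told apart.

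The 4 arrays had one sign in 14 of 41 members on the higher side, against 14.1% of all genes, and in 1 member, Nags, on the lower side, against 15.7%. The individual livers, read from the separate channels, overlapped between the groups for all but 4 members. All 4 fasted livers were above all 4 re-fed livers for 3 members, Got1, Tdo2 and Gldc, against 6.03% of all genes, and below them for 1 member, Nags, against 7.77%. None of the 41 measured members, which leave out Sds, was past 1.5-fold on every array. For 22 of 41 members the 95% interval of the limma estimate lay wholly within a 1.5-fold change in either direction, against 82.5% of all genes. Without replicate 3 no member was called, with Got1 at 1.62 (adjusted p = 0.114) and Tat at 0.91 (adjusted p = 0.122), and without replicate 2 no member was called either, with Got1 at 1.35 (adjusted p = 0.116) and Tat at 0.70 (adjusted p = 0.142).

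**Figure D1:**
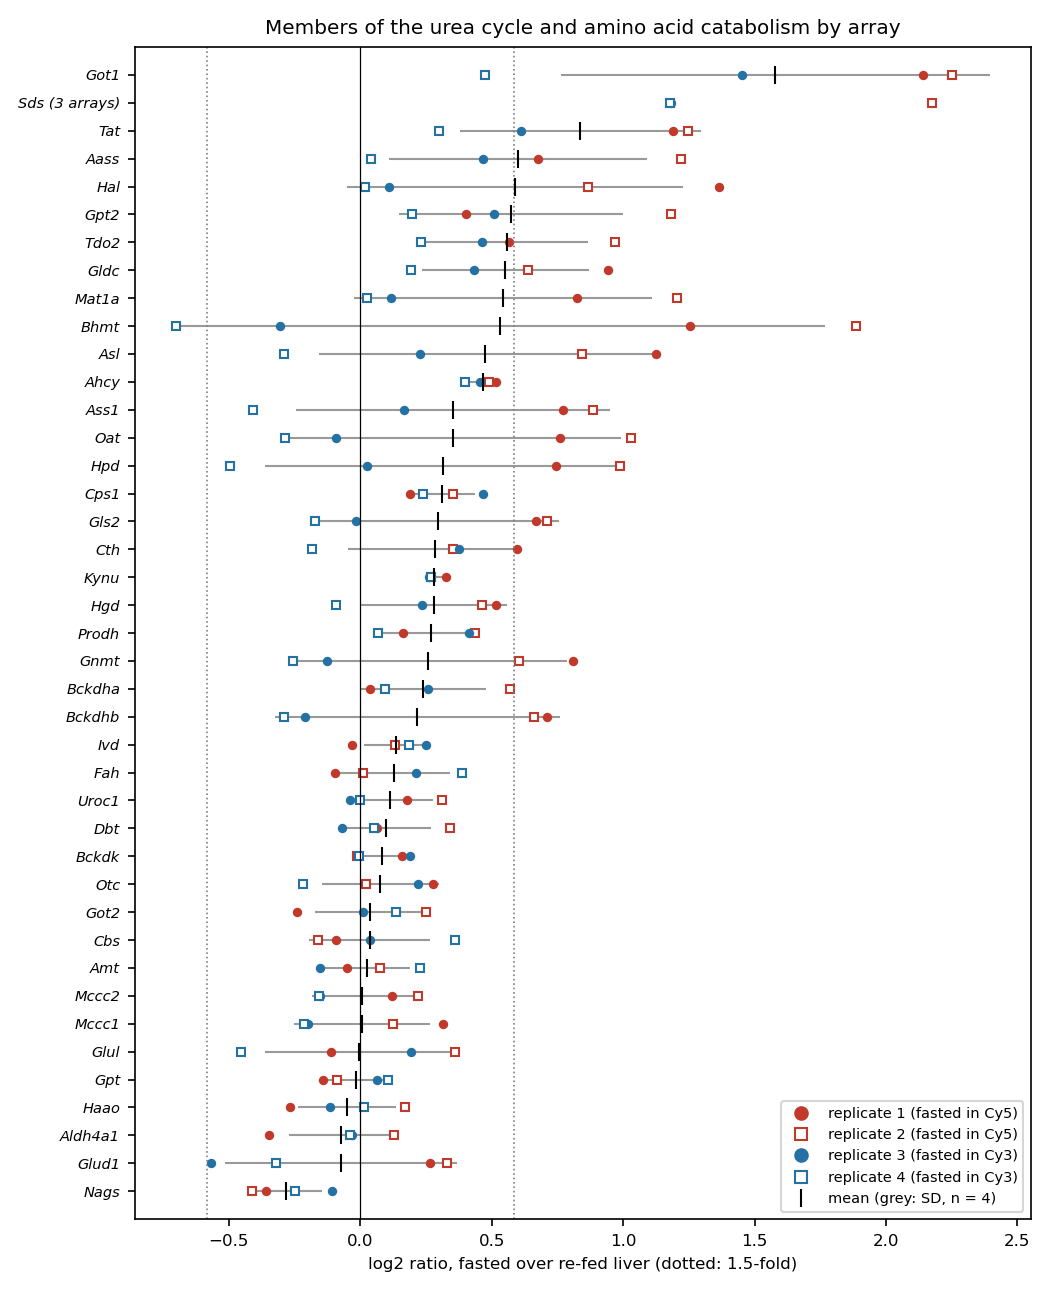
Log2 ratio of fasted over re-fed liver (x axis) for the members (y axis, ordered by mean) on the 4 arrays, with red marks for the arrays with the fasted liver in Cy5, blue marks for those with it in Cy3, a tick for the mean and a grey bar for the SD (n = 4). Sds has 3 arrays and no mean drawn. Got1 lies farthest to the right at 1.58, Nags farthest to the left at -0.28, and the red marks of many members lie to the right of their blue marks.

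The aminotransferases held both called members. Got1, the cytosolic aspartate aminotransferase, had log2 channel intensities of 15.45, 14.90, 14.63 and 13.82 in the fasted livers of replicates 1 to 4 and of 13.31, 12.65, 13.18 and 13.35 in the re-fed livers. The lowest fasted liver, that of replicate 4, was still above the highest re-fed liver. The ratios were 2.14, 2.25, 1.45 and 0.47, so that Got1 rose by 1.58 ± 0.82 (SD, n = 4, SE 0.29, 2.99-fold, adjusted p = 0.0339 in limma), with a 95% interval from 0.88 to 2.28. The probe covers chromosome 19 from 43574278 to 43574337 in mm9, the build of the files, and its place within the transcript is not given there. Replicate 4 gave the smallest ratio of the 4 by far.

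Tat, the aminotransferase that opens tyrosine breakdown, had log2 channel intensities of 15.45, 15.15, 14.64 and 14.25 in the fasted livers and of 14.26, 13.90, 14.03 and 13.95 in the re-fed livers. Fasted and re-fed livers overlapped narrowly, since the fasted liver of replicate 4 was just below the re-fed liver of replicate 1. On the log2 ratio Tat had 1.19, 1.25, 0.61 and 0.30, and rose by 0.84 ± 0.46 (SD, n = 4, SE 0.17, 1.79-fold, adjusted p = 0.0451 in limma). Its probe covers chromosome 8 from 112523207 to 112523266. The other aminotransferases were not called. The mitochondrial alanine aminotransferase Gpt2 had 0.57 ± 0.43, ornithine aminotransferase (Oat) 0.35 ± 0.64, the mitochondrial aspartate aminotransferase Got2 0.04 ± 0.21 and the cytosolic alanine aminotransferase Gpt -0.02 ± 0.12 (log2 ratio, SD, n = 4).

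The cytosolic and mitochondrial forms of one reaction were compared on the same arrays. The ratio of Got1 exceeded that of Got2 by 2.38, 2.00, 1.44 and 0.34 on replicates 1 to 4, a mean of 1.54 ± 0.89 (SD, n = 4, exact two-sided sign-flip test, p = 0.125). Gpt lay below Gpt2 on all 4 arrays, by -0.59 ± 0.49 on average (SD, n = 4, exact sign-flip test, p = 0.125). For both pairs this is the smallest p that the sign-flip test can give with 4 arrays, so that test could not pass a threshold of 0.05 for any of these differences. Glutamine synthetase (Glul) minus the liver glutaminase Gls2, enzymes of opposite reactions, was -0.30 ± 0.41 (SD, n = 4, exact sign-flip test, p = 0.25). Over these pairs and that of Sds and Gldc, 4 in all, every p adjusted by Benjamini-Hochberg was 0.25 in the exact tests.

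**Figure D2:**
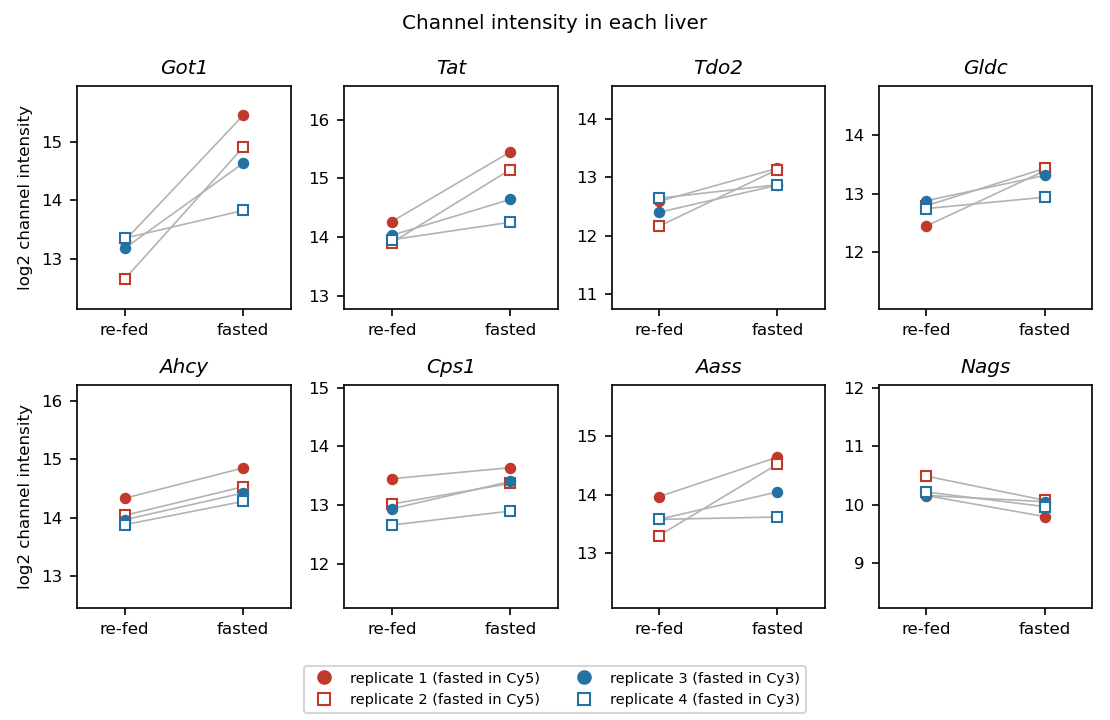
Log2 channel intensity (y axis) of 8 members in each re-fed and fasted liver (x axis), with lines joining the livers of 1 array and marks by array as in the plot of all members. Every panel spans the same log2 range. Got1 climbed by 2.25 on replicate 2 and by 0.47 on replicate 4, Ahcy by 0.40 to 0.52 on every array, and Nags was lower in the fasted liver on every array.

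No gene of the urea cycle was called. The 6 had a median log2 ratio of 0.33. Cps1, carbamoyl phosphate synthetase, which brings ammonia into the cycle, had log2 channel intensities of 12.90 to 13.64 in the fasted and 12.66 to 13.45 in the re-fed livers, which overlapped. Its ratios were 0.19, 0.35, 0.47 and 0.24, a mean of 0.31 ± 0.12 (SD, n = 4, adjusted p = 0.0764 in limma), past the p limit and under the fold limit. Argininosuccinate lyase (Asl, 0.48 ± 0.63) and argininosuccinate synthase (Ass1, 0.35 ± 0.60) had wide spreads, each with 3 arrays above 0 and replicate 4 below 0.

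Nags makes N-acetylglutamate, the activator that Cps1 needs, and was the lowest of all members. Its fasted livers had log2 channel intensities of 9.80 to 10.08 and its re-fed livers of 10.16 to 10.49, so that the groups did not overlap. On replicates 1 to 4 the ratios were -0.36, -0.41, -0.11 and -0.25, a mean of -0.28 ± 0.14 (SD, n = 4, adjusted p = 0.106 in limma), which missed both limits. Ornithine transcarbamylase (Otc) was measured by 2 probes whose means had opposite signs. The brighter probe, on chromosome X from 9897267 to 9897326, had ratios of 0.28, 0.02, 0.22 and -0.22 (mean 0.08 ± 0.22, SE 0.101, adjusted p = 0.743), with log2 channel intensities of 13.26 to 13.52 in fasted and 13.24 to 13.48 in re-fed livers. The dimmer one, whose target spans an intron between 9853843 and 9877490, had -0.12, -0.06, 0.11 and -0.08 (mean -0.04 ± 0.105, SE 0.0756, adjusted p = 0.835), with 11.29 to 11.66 in fasted and 11.38 to 11.66 in re-fed livers. Both differed from 0 by less than the spread between arrays.

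Tyrosine breakdown after Tat had no call. Hpd, which turns the product of Tat into homogentisate, had ratios of 0.74, 0.99, 0.03 and -0.49, with a mean of 0.32 ± 0.68 (SD, n = 4, SE 0.24, adjusted p = 0.528 in limma). Its fasted livers spanned 14.25 to 15.57 and its re-fed livers 14.34 to 14.82 in log2 channel intensity, and so overlapped. Hgd, which opens the homogentisate ring, had 0.28 ± 0.28, and Fah, which splits the last intermediate into fumarate and acetoacetate, 0.13 ± 0.21. The first step of the pathway thus had the largest log2 ratio of the 4 genes from Tat to Fah. Differences between these steps were not tested.

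For tryptophan and lysine, Tdo2, the enzyme that opens tryptophan breakdown in the liver, was higher in fasted liver on every array. Its log2 channel intensities were 13.15, 13.13, 12.86 and 12.87 in the fasted and 12.59, 12.16, 12.40 and 12.64 in the re-fed livers, with no overlap. The ratios were 0.56, 0.97, 0.46 and 0.23, and the mean of 0.56 ± 0.31 (SD, n = 4, adjusted p = 0.0573 in limma; 1.47-fold) fell just short of the fold limit. Kynu, kynureninase further down the same path, had 0.33, 0.27, 0.26 and 0.27, the smallest spread of any member (0.28 ± 0.03, adjusted p = 0.0663), while Haao, the next oxygenase, had -0.05 ± 0.19. A dimmer Kynu probe had 0.21 ± 0.18.

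Aass opens lysine breakdown and had the largest mean of this group. Log2 channel intensities were 14.64, 14.52, 14.05 and 13.62 in the fasted and 13.97, 13.30, 13.58 and 13.58 in the re-fed livers. The fasted liver of replicate 4 lay among the re-fed livers. The ratios were 0.68, 1.22, 0.47 and 0.04, with a mean of 0.60 ± 0.49 (SD, n = 4, SE 0.18, 1.52-fold, adjusted p = 0.118 in limma), and the probe covers chromosome 6 from 23022668 to 23022727. With a dye term in the model its adjusted p was 0.0193 and it was called.

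Histidase (Hal), which opens histidine breakdown, had log2 channel intensities of 14.49, 14.20, 14.09 and 13.67 in the fasted and 13.13, 13.33, 13.98 and 13.65 in the re-fed livers. High ratios came only from the arrays with the fasted liver in Cy5: they were 1.36 and 0.86 on replicates 1 and 2 and 0.11 and 0.02 on replicates 3 and 4. The mean was 0.59 ± 0.64 (SD, n = 4, SE 0.23, 1.504-fold, adjusted p = 0.206 in limma), and the probe covers chromosome 10 from 92979135 to 92979194. With a dye term it was called (adjusted p = 0.0112). Urocanase (Uroc1), the next step, had 0.11 ± 0.16.

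Sds, serine dehydratase, turns serine into pyruvate. On replicate 1, where its spot was flagged, the pixel medians were 1409 in the fasted (red) and 179.5 in the re-fed (green) channel, and Agilent's processed signals gave a log2 ratio of 3.52. On replicates 2 to 4 the ratios were 2.18, 1.18 and 1.18. All 4 arrays thus read higher in the fasted liver. In a fit that also took probes with 3 arrays, an alternative added after this gap was seen, the mean was 1.51 ± 0.57 (SD, n = 3, 2.85-fold, adjusted p = 0.0267 in limma). On the same 3 arrays Got1 had a mean of 1.39.

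Gldc, the glycine-cleaving subunit of the glycine cleavage system, had log2 channel intensities of 13.39, 13.44, 13.32 and 12.94 in the fasted and 12.45, 12.80, 12.88 and 12.75 in the re-fed livers. The groups did not overlap. Its ratios were 0.94, 0.64, 0.43 and 0.19, a mean of 0.55 ± 0.32 (SD, n = 4, SE 0.13, 1.47-fold, adjusted p = 0.0623 in limma, under the fold limit), and the probe covers chromosome 19 from 30172983 to 30173042. Amt, another subunit of the same system, had 0.02 ± 0.17. Its probe was dim, with a mean log2 intensity of 7.07, against a median of 8.43 over all genes. The ratio of Sds exceeded that of Gldc by 1.09 ± 0.404 on the 3 arrays (exact two-sided sign-flip test, p = 0.25, the smallest that 3 arrays allow).

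In proline breakdown, Prodh, the first enzyme, had ratios of 0.16, 0.44, 0.41 and 0.07 and a mean of 0.27 ± 0.18 (SD, n = 4, SE 0.09, adjusted p = 0.153 in limma), with log2 channel intensities of 13.19 to 13.55 in fasted and 13.10 to 13.32 in re-fed livers, which overlapped. Aldh4a1, which completes the path to glutamate, had -0.07 ± 0.20. The enzymes of glutamate itself stayed near 0 or spread widely. Gls2 had ratios of 0.67, 0.71, -0.02 and -0.17 (mean 0.30 ± 0.46, SE 0.17, adjusted p = 0.387), with 13.31 to 13.88 in fasted and 13.06 to 13.70 in re-fed livers. Glul had 0.00 ± 0.36, and glutamate dehydrogenase (Glud1) -0.07 ± 0.44.

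The enzymes that break down the branched-chain amino acids had the lowest median of the groups with 6 or 7 members. All 7 means lay between 0.01 and 0.24, with a median of 0.10, and none had an adjusted p under 0.10. Bckdha, a subunit of the branched-chain keto acid dehydrogenase, had the largest, with ratios of 0.04, 0.57, 0.26 and 0.09 (mean 0.24 ± 0.24, SD, n = 4; SE 0.106, adjusted p = 0.262 in limma) and overlapping livers of 13.32 to 13.55 when fasted and 12.91 to 13.52 when re-fed. The other subunits among the members had 0.22 ± 0.54 (Bckdhb) and 0.10 ± 0.17 (Dbt). The kinase that switches the complex off, Bckdk, had 0.08 ± 0.11, and further down the leucine path the dehydrogenase Ivd had 0.13 ± 0.12 and the carboxylase subunits Mccc1 and Mccc2 0.01 ± 0.26 and 0.01 ± 0.19.

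In the methionine cycle, Ahcy, which clears S-adenosylhomocysteine, had the smallest adjusted p of all members. Its 3 probes had means of 0.47, 0.47 and 0.47 and adjusted p of 0.0198, 0.0923 and 0.0198 in limma. On the brightest probe the ratios were 0.52, 0.49, 0.46 and 0.40 (0.47 ± 0.05, SD, n = 4; 1.38-fold), so Ahcy missed the call through the fold limit alone. Mat1a, the liver's methionine adenosyltransferase, had the largest mean, with ratios of 0.82, 1.20, 0.11 and 0.03 (0.54 ± 0.57, SE 0.21, 1.46-fold, adjusted p = 0.196) and overlapping log2 channel intensities of 14.61 to 15.59 in fasted and 14.29 to 14.77 in re-fed livers. Its probe covers chromosome 14 from 41937140 to 41937199. Glycine N-methyltransferase (Gnmt) had 0.26 ± 0.53. Of the transsulfuration enzymes, which carry homocysteine to cysteine, Cth had 0.28 ± 0.33 and Cbs 0.03 ± 0.23.

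**Figure D3:**
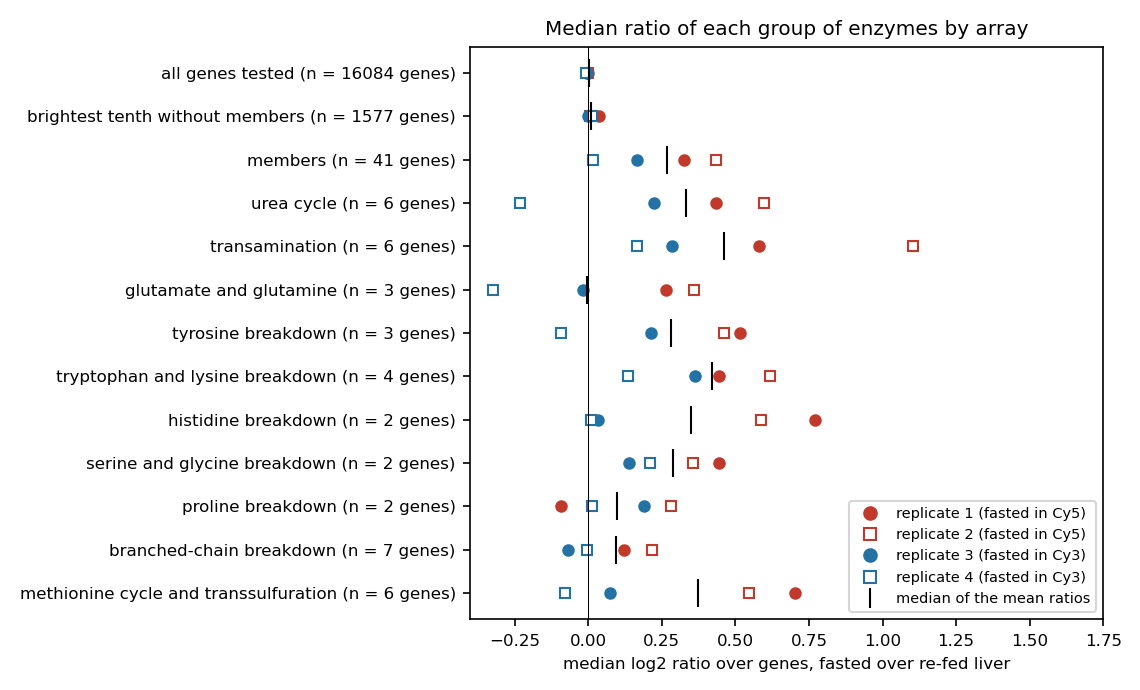
Median log2 ratio of fasted over re-fed liver (x axis) over the genes of each group (y axis, number of genes in brackets) on each array, with a tick for the median of the mean ratios. All genes and the brightest 10% without members sit at 0.00 and 0.01, the members at 0.27, transamination highest at 0.46 and glutamate and glutamine at 0.00.

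The size of the members' ratios went with the dye orientation. The median over the 41 members was 0.33 and 0.44 on replicates 1 and 2, with the fasted liver in Cy5, and 0.17 and 0.02 on replicates 3 and 4, with it in Cy3. Of the 41, 35 had a mean above 0 on replicates 1 and 2 and 24 on replicates 3 and 4, and 21 were above 0 in both. In a model with a dye term, a dye effect had an adjusted p under 0.10 in limma for 15 of 41 members, against 15.4% of all genes, and all 15 were brighter in Cy5, where all genes split into 1265 brighter in Cy5 and 1207 in Cy3. The brightest 10% of genes without the members had medians of 0.03 on replicates 1 and 2 and 0.01 on replicates 3 and 4. Among the 5 hepatocyte markers the same medians were 0.33 and -0.23.

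The widest split was that of Bhmt, betaine-homocysteine methyltransferase, which remakes methionine. Its ratios were 1.25 and 1.88 on replicates 1 and 2 and -0.31 and -0.70 on replicates 3 and 4, a mean of 0.53 ± 1.24 (SD, n = 4), and its other probes split the same way. The 2 probes of Glud1, both annotated to the same transcript, split in opposite directions. The brighter had means of 0.30 on replicates 1 and 2 and -0.45 on replicates 3 and 4, and the dimmer -0.34 and 0.16. Ahcy, Cps1 and Kynu had nearly equal means in both orientations (0.50 and 0.43, 0.27 and 0.35, 0.30 and 0.27). Since each orientation was run on different livers, a dye effect and a difference between the livers of replicates 1 and 2 and those of replicates 3 and 4 cannot be told apart.

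**Figure D4:**
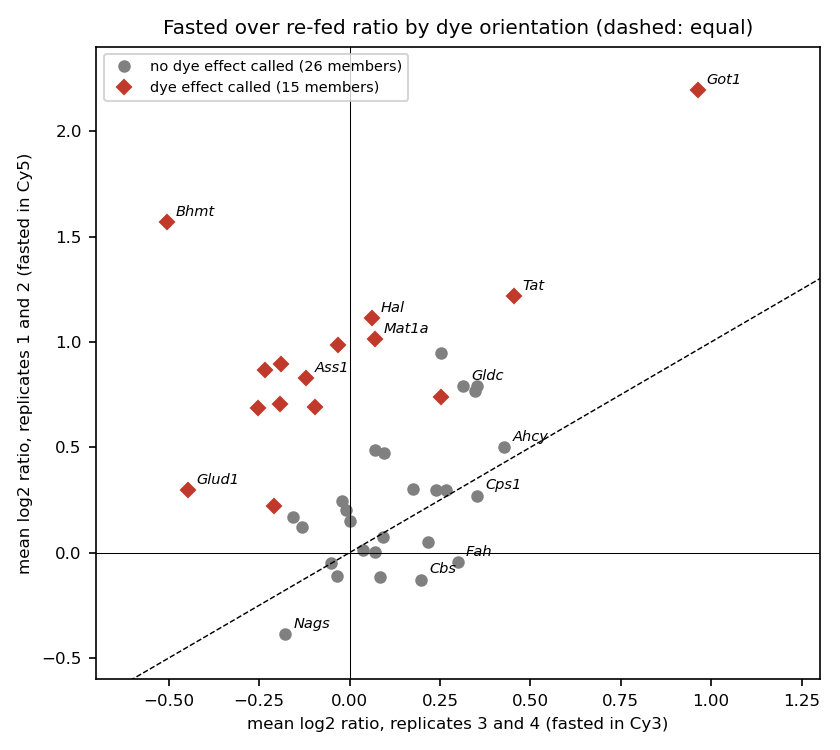
Mean log2 ratio of fasted over re-fed liver on replicates 1 and 2 (y axis) against that on replicates 3 and 4 (x axis) for the 41 members, with red diamonds for the 15 members with a dye effect at an adjusted p under 0.10 and a dashed line where both are equal. Got1 is positive in both (2.19 and 0.96), Bhmt is at 1.57 and -0.50, and all red diamonds lie above the line.

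With the dye term, which takes the orientation out of the spread, 4 of 41 members were called higher (Aass, Got1, Hal and Tat), against 2.08% of all genes, and 0 were called lower, against 2.29%. At an adjusted p under 0.10 and any fold, 22 members were higher, against 13% of all genes, and 1, Nags, was lower (adjusted p = 0.0269), against 13.8%. Got1 then had an adjusted p of 0.00316 and Tat of 0.00235. The number of members with a dye effect depended on the arrays and on the processing. It was 15 with all arrays, 13 without replicate 1 (9.36% of all genes) and 12 without replicate 2 (12.4%). It was 8 without replicate 3 (2.23% of all genes) and 1 without replicate 4 (1.24%). It was 13 on the authors' own log2 ratios (16.5% of all genes) and 6 with median centring (3.18%). With the background fit on all spots it was 4 (6.77% of all genes), of which 2 were brighter in Cy5. On Agilent's processed signals it was 1 (2.39% of all genes), while the member medians on those signals were still 0.47 on replicates 1 and 2 and 0.09 on replicates 3 and 4.

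**Figure D5:**
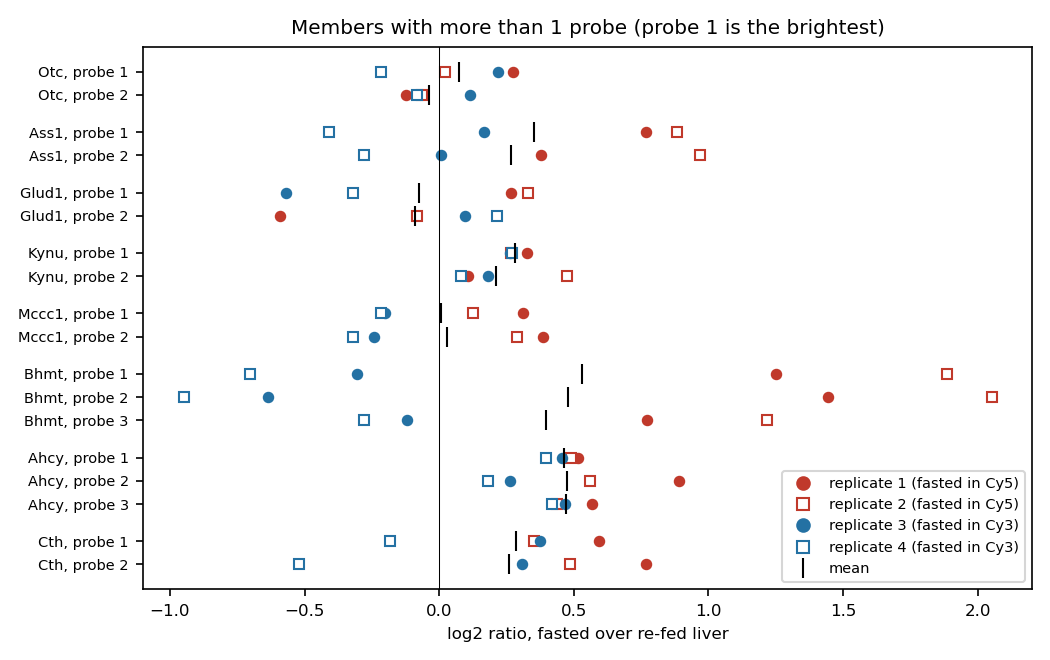
Log2 ratio of fasted over re-fed liver (x axis) on each array for the 8 members with more than 1 measured probe (y axis, probe 1 the brightest), with a tick for the mean. The Ahcy probes share a mean of 0.47, the Bhmt probes all split by orientation, and the Glud1 probes split in opposite directions.

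Other genes of the same pathways, 80 on a list set beside the members, were measured for 71. Of these, 2 were called higher, against 1.82% of all genes, and 1 lower, against 2.13%, and their median was 0.10. Without replicate 3 the counts were 2 higher and 0 lower (183 and 212 of all genes). The lower count was also 0 without replicate 2 (243 of all genes) and without replicate 4 (280), and with the background fit on all spots both counts were 0 (5 and 15 of all genes). It was 2 without replicate 1 (430 of all genes), with a dye term (369) and with median centring (539). On Agilent's processed signals the counts were 4 higher and 3 lower (563 and 707 of all genes), and without a fold limit 6 and 3 (798 and 1010). Over all the alternatives run, the higher count lay between 0 and 6 and the lower count between 0 and 3. Ppm1k, the phosphatase that switches the branched-chain keto acid dehydrogenase on, had ratios of 0.51, 1.35, 1.15 and 1.73 and rose by 1.19 ± 0.51 (SD, n = 4, 2.28-fold, adjusted p = 0.0231 in limma), with fasted livers at 10.24 to 10.68 and re-fed livers at 8.89 to 9.73. Its counterpart among the members, the kinase Bckdk, had 0.08, and the member subunits of the dehydrogenase itself 0.10 to 0.24. The Bckdk probe was dim, with a mean log2 intensity of 7.85, against a median of 8.43 over all genes. Dld, the subunit that this complex shares with other dehydrogenases, is on the list and not among the members, and had -0.15 ± 0.24 (SD, n = 4, adjusted p = 0.477 in limma). Aspg, an asparaginase, had 0.57, 0.34, 0.79 and 0.86 and rose by 0.64 ± 0.24 (1.56-fold, adjusted p = 0.0262). With the dye term Odc1, ornithine decarboxylase, was called lower, at -0.86 ± 0.72 (adjusted p = 0.0137 in limma). Its ratios were 0.12, -0.78, -1.26 and -1.53, and without the dye term it was not called (adjusted p = 0.115 in limma).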

How the data were processed

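The authors labelled each liver's RNA (200 ng) in Cy5 or Cy3 and hybridised it to 4 2-colour Agilent arrays on 1 slide, read in 1 scan. They deposited raw intensity per spot (Feature Extraction 10.10.1.1 per the file headers, where the methods name another version) and a table of log2 ratios normalized by loess in limma, used here as an alternative after matching its rows to spots by row number. So matched, its Pearson correlation with the ratios of Agilent's processed signals was 0.32 on replicate 1 and 0.68 to 0.75 on replicates 2 to 4. From the median intensities, spots with a local background over 3 times the median of their array in a channel (0 to 29 per array) and spots flagged as outliers (197 to 322) were left out, and no spot was saturated. Normexp (offset 50) and loess were applied, and spots of 1 probe averaged. Probes above background on all 4 arrays in at least 1 condition were kept (19720 of 39429), and a gene entered by its brightest probe. Single livers were read after Aquantile scaling. Ratios were tested two-sided with limma 3.58.1 in R 4.3.3 without a dye term, adjusted by Benjamini-Hochberg over the kept probes, and called at an adjusted p under 0.10 and 1.5-fold. The methods name SAM, rebuilt as an alternative. On simulated data with 19720 probes, 200 changed by 1.5 on the log2 scale, limma recovered 98.5% with the estimated dye effects added, with 2.48% of its calls false (6.54% with no dye effect added, and 9.5% for the model with a dye term). Noise was drawn independently for each probe. Smaller changes, such as the members' median of 0.27, were not simulated, so this recovery does not apply to them. A pair of genes that the rules select is not reported here. Full values are given for called members, the largest of each role without a call and members whose probes disagree in sign or call. Members and lists were chosen with earlier results of these data known. Of the marker lists (hepatocyte, its zones, acinar, blood, Kupffer, endothelial, stellate, bile duct, adipose, lymphoid), 0 genes were called.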

Additional observations from a re-analysis of the deposited data

Results flagged for a closer look

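The log2 ratios of the 4 arrays were compared within each of 41 members, and 1 member had an array far from the others. Kynu had 0.33 on replicate 1 against 0.26 to 0.27 on the others, a gap of 0.885 of its whole range. Chance gives about 1 such gene in 20, and Kynu had the smallest SD of all 41 members, at 0.03.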

How the results depend on the processing

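Got1 and Tat were called here, and the count of members called higher was 2 or 3 except under the following alternatives. It was 0 with the background fit on all spots (5 of all genes, against 292 here), 1 with median centring in place of loess (Got1, 198 of all genes), 1 at a 2-fold limit (Got1, 86), 4 with a dye term (334) and 4 with the rebuilt SAM (338), in both cases Aass, Got1, Hal and Tat, and 8 without a fold limit (798). Leaving out 1 array gave 0 to 5. It was 1 without replicate 1 (Got1, 352 of all genes), 0 without replicate 2 (228) or replicate 3 (183), and 5 without replicate 4 (Aass, Gldc, Got1, Tat and Tdo2, 257). With Agilent's processed signals Got1, Gpt2 and Tdo2 were called and Tat was not (0.78, adjusted p = 0.104). The count called lower was 0 under every alternative run. The median over the members lay between 0.12 (median centring, where that of all genes was -0.06) and 0.28, and between 0.13 and 0.34 when 1 array was left out. Got1 was called in 19 of 22 alternatives, with a log2 ratio of 1.35 to 1.95, and Tat in 15 of 22, at 0.68 to 1.02. No called member changed sign. The cause of these differences was not tested. Each array already pairs 1 fasted with 1 re-fed liver, so no further pairing was fitted. With 4 arrays, differences between isozymes could not reach an exact p under 0.05.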

Other observations

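Urea cycle enzymes lie mainly in the periportal and glutamine synthetase in the perivenous hepatocytes, so markers of both zones were read as well. The 5 measured perivenous markers had log2 ratios of fasted over re-fed liver with a median of 0.17 and a range from -0.03 to 0.26, and the 5 periportal markers a median of -0.02 and a range from -0.16 to 0.14. None of the 10 was called in limma. Of the other cell types listed, sinusoidal endothelial markers had a median of 0.16, and Stab2 was the 1 marker with an adjusted p under 0.10 there (0.35, adjusted p = 0.0478), under the fold limit.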
